A study of Homo sapiens with 82 samples.

Results

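The 10 genes described here belong to fatty acid synthesis under SREBF1 and were followed through drug treatment of HT29 cells, a human colorectal adenocarcinoma line. They were SREBF1, SCD, FASN, ACACA, ACLY, ELOVL6, FADS1, FADS2, MLXIPL and PNPLA3, taken by symbol from the gene count tables, and all 10 were found among the 51838 genes of the tables. The groups were DMSO, the drug vehicle and control, the liver X receptor (LXR) agonists GW3965 and T0901317, and the PPARG agonist rosiglitazone, each drug at 10 μM, after 24 and 48 h. RNA-seq had 4 libraries in each of the 8 groups, 32 in all. All groups share the same unmodified cell line, 1 dose of each drug and, by the study's methods, growth in charcoal/dextran-treated serum before the drug was added, so they stand for 1 culture model only. The study's methods say that each treatment was done in quadruplicate, and the labels do not say whether the 4 libraries of a group came from separate cultures. If they did not, p-values measure only the technical spread between these libraries.

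SREBF1 encodes SREBP-1, a membrane-bound transcription factor that is cut and released to the nucleus, where it drives the genes of fatty acid synthesis. LXRs, which respond to oxysterols, are known to induce SREBF1, and they also act on some of its target genes directly. Within the pathway ACLY makes cytosolic acetyl-CoA from citrate, ACACA carboxylates it to malonyl-CoA, FASN builds palmitate, ELOVL6 elongates it, SCD introduces the first double bond, and FADS1 and FADS2 desaturate polyunsaturated fatty acids. MLXIPL encodes ChREBP, the glucose-responsive partner factor of lipogenesis, and PNPLA3 encodes a lipid droplet lipase that SREBP-1 and ChREBP are known to induce.

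Total counts per library lay between 21044798 and 51332656, and TMM scaling factors between 0.872 and 1.10. Levels are given as CPM, counts relative to the scaled library total, on 1 scale for all 32 libraries. They are not divided by gene length, so levels of different genes are not compared. The epithelial markers EPCAM (241 to 365 CPM) and KRT8 (7108 to 11090 CPM) were high in every library. Of the 10 epithelial markers measured, the lowest were CDX2 (6.46 to 20.8 CPM) and CEACAM5 (10.8 to 79.8 CPM), and KRT20 ranged from 246 to 1508 CPM. Their summed level at 24 h was higher with each drug (20169 CPM or more) than with DMSO (18575 to 20071 CPM). At 48 h it was lower with T0901317 (15559 to 17250 CPM) than with DMSO (18304 to 19441 CPM). With GW3965 it then overlapped with DMSO, and with rosiglitazone it was higher. Among 14 markers of other cells COL1A2, COL3A1, DCN, PTPRC, CD3E, ALB, APOA2, ADIPOQ and LEP had at most 6 counts in any library. The other 5 were low but present, the highest being COL1A1 (2.44 to 8.46 CPM), PLIN1 (0.565 to 6.40 CPM) and CD14 (0.441 to 3.88 CPM). The summed level of the 14 lay between 6.39 and 15.1 CPM and was higher at 48 h with each drug (11.0 to 15.1 CPM) than with DMSO (6.72 to 9.37 CPM). The part of either sum in the results was not tested. Known target genes of the receptors were measured beside the members. ABCA1, the cholesterol exporter and LXR target, was higher by 4.61 (log2, standard error 0.09) with GW3965 and by 3.71 (0.09) with T0901317 at 24 h. PDK4, a PPARG target that restrains pyruvate oxidation, was higher by 2.58 (0.10) with rosiglitazone at 24 h, and also by 1.47 (0.10) with GW3965. At 48 h it stood at 33.5 to 46.8 CPM with rosiglitazone, 18.9 to 23.0 CPM with GW3965 and 11.3 to 14.0 CPM with T0901317. All lay above DMSO (4.21 to 4.93 CPM).

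SREBF1 (ENSG00000072310.10) was up-regulated by both LXR agonists, 3.97-fold by GW3965 at 24 h and 4.47-fold at 48 h, and was called with rosiglitazone at 48 h and not at 24 h. The DMSO libraries stood at 447, 501, 425 and 519 CPM at 24 h, and at 608, 578, 522 and 591 CPM at 48 h. With GW3965 they stood at 1294, 1862, 2217 and 2145 CPM at 24 h and at 2552, 2553, 2750 and 2454 CPM at 48 h. No GW3965 library overlapped with DMSO, and replicate 1 of GW3965 at 24 h was the lowest of its group. The difference was 1.99 on the log2 scale (standard error 0.13, adjusted p = 6.05e-09) at 24 h and 2.16 (0.10, adjusted p = 6.95e-12) at 48 h. Adjusted p-values here and below are from edgeR's quasi-likelihood test, adjusted over all genes tested, and a gene was called at an adjusted p under 0.01. T0901317 gave 1634, 1563, 1853 and 1329 CPM at 24 h and 1918, 1473, 1315 and 1706 CPM at 48 h, a difference of 1.76 (0.13, adjusted p = 4.79e-08) and 1.48 (0.10, adjusted p = 9.97e-10). With rosiglitazone the 24 h libraries stood at 536, 496, 566 and 485 CPM and overlapped with DMSO, with a difference of 0.13 (0.13, adjusted p = 0.531). At 48 h they stood at 875, 918, 736 and 715 CPM, all above DMSO, with a difference of 0.48 (0.10, adjusted p = 0.000813). This call was lost when library totals alone set the scale (0.30, adjusted p = 0.0127).

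SCD (ENSG00000099194.4), the stearoyl-CoA desaturase, was up-regulated by all 3 drugs at both times, with a coefficient of variation of at most 6.53% in any group. The DMSO libraries stood at 879, 871, 903 and 852 CPM at 24 h and at 917, 970, 854 and 886 CPM at 48 h. GW3965 libraries stood at 3425, 3566, 3620 and 3541 CPM at 24 h and at 5122, 5502, 5375 and 5616 CPM at 48 h. Each of them lay above every DMSO library, and the 48 h libraries lay above all of the 24 h libraries. The differences were 2.01 (0.05) at 24 h and 2.57 (0.06, adjusted p = 1.33e-16) at 48 h, a 5.94-fold change at the later time. T0901317 gave 2913, 2896, 2900 and 2856 CPM at 24 h and 4830, 4960, 4532 and 5305 CPM at 48 h, differences of 1.72 (0.05, adjusted p = 2.11e-15) and 2.44 (0.06, adjusted p = 4.06e-16). Rosiglitazone up-regulated SCD by much less, to 1011, 1076, 1073 and 988 CPM at 24 h and to 1200, 1244, 1175 and 1228 CPM at 48 h. These differences were 0.24 (0.05, adjusted p = 0.000757) and 0.40 (0.06, adjusted p = 1.84e-05), and the former was lost when library totals alone set the scale (0.14, adjusted p = 0.0406).

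Because SREBF1 and SCD moved together, the 250 bases before the start of each gene are shown from RefSeq (build GRCh38.p14), SREBF1 at chr17:17836987-17837236 on the minus strand and SCD at chr10:100346983-100347232 on the plus strand. Both are written 5′ to 3′ on the strand of the gene, with GGGCGG (GC box) and CCAAT (the NF-Y box) in capitals, read on either strand.
SREBF1: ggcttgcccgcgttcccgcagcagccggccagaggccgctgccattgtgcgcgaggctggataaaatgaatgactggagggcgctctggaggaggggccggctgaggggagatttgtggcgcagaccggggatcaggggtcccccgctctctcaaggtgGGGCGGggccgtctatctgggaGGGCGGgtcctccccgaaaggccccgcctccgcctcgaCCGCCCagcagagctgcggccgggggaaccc
SCD: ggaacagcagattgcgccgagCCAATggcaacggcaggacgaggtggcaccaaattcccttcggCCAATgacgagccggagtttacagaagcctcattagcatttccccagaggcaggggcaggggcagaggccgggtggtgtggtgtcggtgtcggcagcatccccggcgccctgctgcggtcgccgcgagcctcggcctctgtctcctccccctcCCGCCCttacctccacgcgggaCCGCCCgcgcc
The SREBF1 stretch held 3 GC boxes and no CCAAT, and the SCD stretch held 2 of each. The table had 12 promoters for 8 of the 10 members, each of 300 bases with 50 after the start. Of those 12, 10 held a GC box and 6 a CCAAT, against 45% and 34.6% of all 35116 promoters. They are not 12 separate stretches, since the 2 of ACLY overlap and share their boxes, and ACACA gave 3. By gene, each of the 8 held a GC box in at least 1 promoter, and SCD, ACACA, ACLY and FADS2 held a CCAAT. The sterol regulatory element TCACNCCAC, the E-box CACGTG and the DR4 elements bound by LXR were searched on both strands as well. None of the 12 held any of these letters, and among all promoters TCACNCCAC was in 1.13%, CACGTG in 7.26%, and the DR4 forms in 0.0199% and 0.0057%. A missing match says only that these letters are not in this window. For SREBF1 only 1 start was in the promoter set, so any other start of the gene was not searched. Counts were made per gene and do not separate transcripts from different starts. FASN and PNPLA3 are named only.

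FASN (ENSG00000169710.5), the fatty acid synthase, was raised by both LXR agonists, and its level with DMSO differed strongly between the time points. The DMSO libraries stood at 3095, 3592, 2954 and 3571 CPM at 24 h and at 954, 998, 795 and 980 CPM at 48 h, so that every 48 h library lay below every 24 h library. GW3965 libraries stood at 5785, 9484, 12160 and 11560 CPM at 24 h and at 8631, 9254, 7446 and 8270 CPM at 48 h. The levels with GW3965 thus overlapped between the time points whereas those with DMSO did not. The GW3965 difference was 1.56 (0.17, adjusted p = 3.67e-06) at 24 h, a 2.95-fold change, and 3.17 (0.17, adjusted p = 3.42e-11) at 48 h, an 8.98-fold change. Without replicate 1 of GW3965 at 24 h, the lowest library, the former was 1.75. T0901317 gave 8002, 7441, 8946 and 6546 CPM at 24 h and 7368, 4949, 3749 and 5772 CPM at 48 h, differences of 1.23 (0.17, adjusted p = 0.000132) and 2.55 (0.17, adjusted p = 4.77e-10).

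Rosiglitazone left FASN at 4328, 3260, 4574 and 3819 CPM at 24 h, which overlapped with DMSO (0.27, standard error 0.17, adjusted p = 0.287). At 48 h the libraries stood at 1721, 1502, 1257 and 1076 CPM, all above DMSO, with a difference of 0.56 (0.16, adjusted p = 0.00859). This call was lost with DESeq2 (adjusted p = 0.0109), with library totals alone (0.0468), and without any 1 of the DMSO libraries (0.0140 to 0.0329), without replicate 1 of rosiglitazone (0.0310) or without its replicate 2 (0.0257).

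ACACA (ENSG00000132142.13), the acetyl-CoA carboxylase that commits carbon to fatty acid synthesis, rose by smaller but tightly replicated amounts. The DMSO libraries stood at 374, 358, 349 and 350 CPM at 24 h and at 293, 307, 286 and 282 CPM at 48 h. With GW3965 they stood at 645, 665, 672 and 631 CPM at 24 h and at 615, 666, 614 and 647 CPM at 48 h, all above DMSO and overlapping between the time points. The differences were 0.87 (0.05, adjusted p = 2.90e-10) and 1.12 (0.05, adjusted p = 9.59e-12). T0901317 gave 605, 614, 626 and 606 CPM at 24 h and 644, 648, 574 and 645 CPM at 48 h, with differences of 0.78 (0.05) and 1.10 (0.05), both called. Rosiglitazone gave 363 to 394 CPM at 24 h and 310 to 340 CPM at 48 h, and neither difference passed (0.05 and 0.13, adjusted p = 0.475 and 0.0683), although the 48 h libraries did not overlap with DMSO.

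ACLY (ENSG00000131473.10), the ATP citrate lyase, was called with the LXR agonists at 48 h and not at 24 h. At 24 h DMSO stood at 563, 551, 469 and 544 CPM and GW3965 at 556, 656, 731 and 656 CPM, and the ranges overlapped (0.29, standard error 0.08, adjusted p = 0.0608). Without replicate 1 of GW3965 this difference was 0.36 and was called (adjusted p = 0.00379). T0901317 stood at 598, 565, 653 and 524 CPM and also overlapped with DMSO (0.14, adjusted p = 0.561). At 48 h DMSO stood at 341, 354, 301 and 320 CPM, GW3965 at 507, 579, 514 and 561 CPM and T0901317 at 518, 451, 365 and 456 CPM. Both drugs lay wholly above DMSO, by 0.71 (0.09, adjusted p = 1.45e-06) and 0.44 (0.09, adjusted p = 0.000308). The group means with GW3965 and T0901317 were nevertheless lower at 48 h (540 and 447 CPM) than at 24 h (649 and 585 CPM). The mean with DMSO went from 532 CPM at 24 h to 329 CPM at 48 h. Rosiglitazone libraries overlapped with DMSO at both times (0.11 and 0.11, adjusted p = 0.435 and 0.319).

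ELOVL6 (ENSG00000170522.5), the elongase of palmitate, was raised by all 3 drugs at both times, and at 24 h rosiglitazone brought it into the range of GW3965. At 24 h DMSO stood at 39.0, 38.2, 40.7 and 37.9 CPM, GW3965 at 67.0, 56.0, 56.7 and 62.1 CPM and T0901317 at 56.1, 54.6, 51.4 and 57.6 CPM. Rosiglitazone stood at 62.8, 66.2, 63.3 and 60.6 CPM, within the range of GW3965. The differences from DMSO were 0.63 (0.06), 0.50 (0.06) and 0.69 (0.06), all called, and rosiglitazone minus GW3965 was 0.06 with a 95% interval of -0.06 to 0.18. At 48 h DMSO stood at 17.7, 18.8, 18.8 and 19.4 CPM, below all other groups, and rosiglitazone at 29.7, 25.4, 26.1 and 26.6 CPM. GW3965 stood at 50.6, 49.6, 41.5 and 51.2 CPM and T0901317 at 54.9, 56.8, 47.2 and 54.7 CPM. The differences were 1.36 (0.08) with GW3965, 1.52 (0.08) with T0901317 and 0.51 (0.08, adjusted p = 3.65e-05) with rosiglitazone.

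FADS1 (ENSG00000149485.10), the delta-5 desaturase, was called with rosiglitazone at 48 h and in no comparison of an LXR agonist with DMSO. The DMSO libraries stood at 12.2, 9.56, 10.7 and 12.8 CPM and the rosiglitazone libraries at 15.0, 17.7, 26.2 and 14.9 CPM at 48 h. The groups did not overlap, and replicate 3 of rosiglitazone was the highest. The difference was 0.69 (0.14, adjusted p = 0.000871), and 0.47 (adjusted p = 0.00161) without that replicate. The 95% intervals with GW3965 were -0.12 to 0.29 at 24 h and -0.23 to 0.37 at 48 h, and with T0901317 -0.16 to 0.27 and -0.44 to 0.17. With rosiglitazone at 24 h the difference was -0.23 (adjusted p = 0.119). The 5′ ends of FADS1 and FADS2 overlap head to head in the RefSeq annotation, and without a stated strand setting reads there cannot be told apart.

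FADS2 (ENSG00000134824.8), the delta-6 desaturase, had 0 to 84 counts in a library. At this depth no difference was called in any comparison with DMSO, with 95% intervals as wide as -0.85 to 1.74, for rosiglitazone at 48 h. Replicate 1 of DMSO at 24 h had 84 counts against 9, 19 and 13 in the others, and without it the GW3965 value at 24 h turned from -0.29 to 0.82 (adjusted p = 0.453). Replicate 1 of DMSO at 48 h likewise had 47 counts against 9, 0 and 14. Without it the FADS2 values at 48 h were 1.88 for GW3965 (0.67 with it, adjusted p = 0.0158), 1.91 for T0901317 (0.70 with it, 0.0159) and 1.67 for rosiglitazone (0.45 with it, 0.0430), none of which passed. PNPLA3 (ENSG00000100344.6) had 41 to 98 counts in a library and lay between 1.21 and 2.96 CPM, with overlapping groups in every comparison with DMSO. Its differences ranged from -0.07 with GW3965 at 24 h to 0.35 (0.18, adjusted p = 0.124) with T0901317 at 48 h.

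MLXIPL (ENSG00000009950.11), the gene of ChREBP, was called only with GW3965 at 48 h among the comparisons with DMSO. At 48 h DMSO stood at 7.11, 5.78, 5.35 and 5.82 CPM, GW3965 at 9.03, 10.0, 11.5 and 7.84 CPM and T0901317 at 7.66, 6.53, 7.76 and 6.95 CPM. Rosiglitazone stood at 3.06, 4.70, 5.55 and 3.47 CPM. GW3965 lay wholly above DMSO (0.67, standard error 0.15, adjusted p = 0.00127), T0901317 overlapped with it (0.27, adjusted p = 0.174), and rosiglitazone stood at -0.54 (0.16, adjusted p = 0.0134), which did not pass. This last value passed with DESeq2 (adjusted p = 0.00895), with library totals alone (0.000703), without the filter on low counts (0.00961) and without replicate 3 of rosiglitazone (-0.71, adjusted p = 0.00154). At 24 h GW3965 stood at 3.06, 4.92, 6.51 and 5.51 CPM against 3.02 to 3.78 CPM with DMSO (0.56, adjusted p = 0.161).

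**Figure D1:**
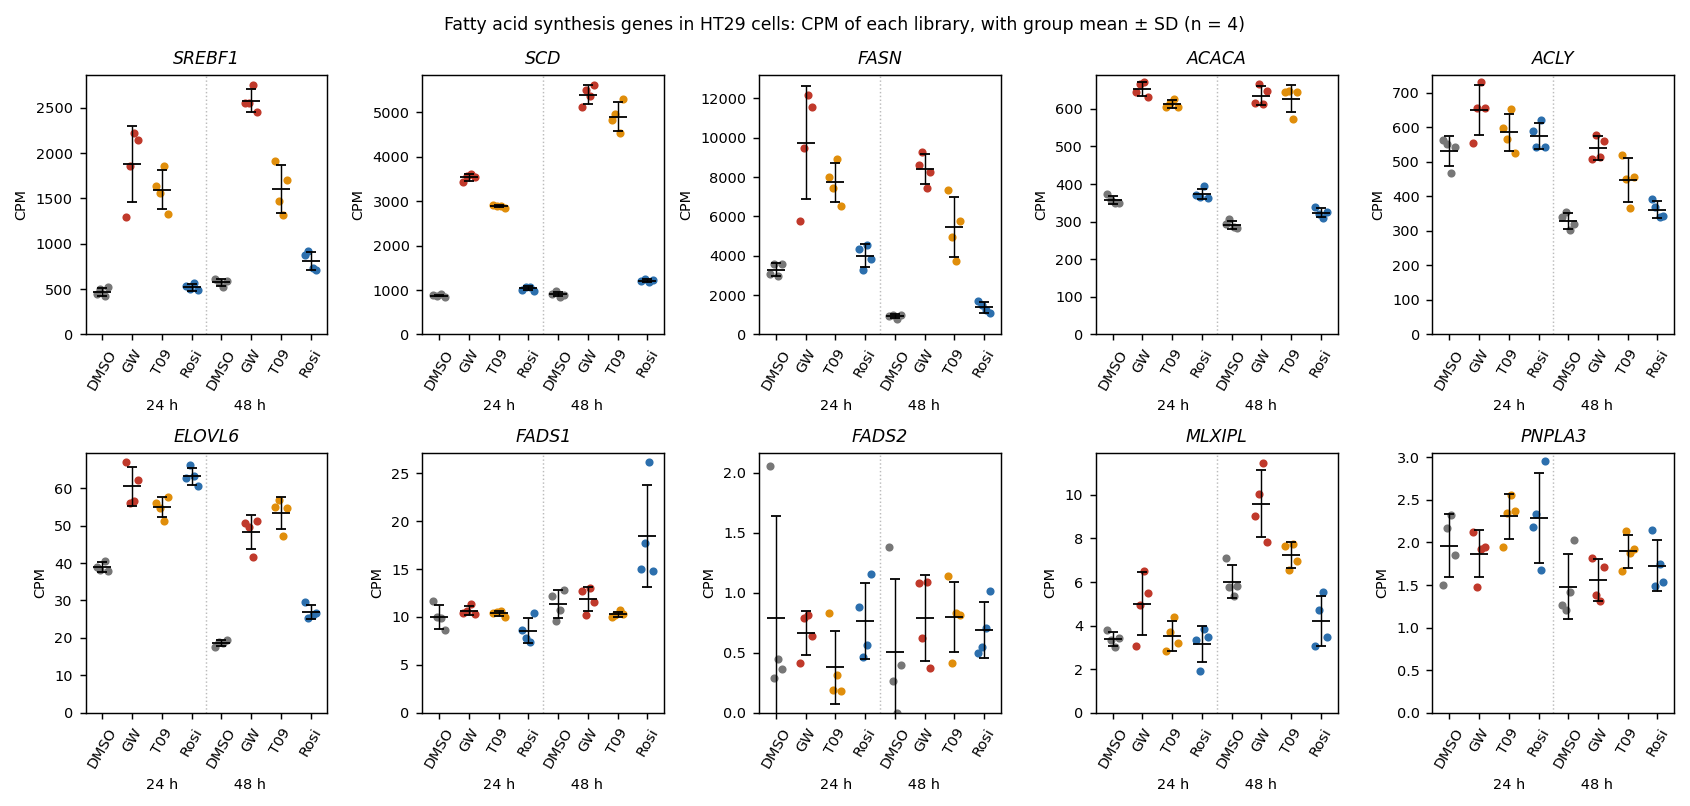
CPM (vertical axes, from 0) of the 10 genes in each library, for DMSO, GW3965 (GW), T0901317 (T09) and rosiglitazone (Rosi) at 24 h, left of the dotted line, and 48 h, right of it; bars give mean ± SD of 4 libraries and are cut at 0 for FADS2. FASN with DMSO was 3303 ± 327 CPM at 24 h and 932 ± 92.9 CPM at 48 h, whereas its GW3965 libraries overlapped between the time points.

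In counts, GW3965 at 24 h raised 5 of the 10 genes (SREBF1, SCD, FASN, ACACA and ELOVL6) and lowered none, and T0901317 raised the same 5. Of all 21781 genes tested, 1.86% were called higher and 0.868% lower with GW3965, and 1.33% and 0.119% with T0901317. SREBF1, SCD and FASN were at least 2-fold higher with each agonist, against 0.445% and 0.271% of all genes. Rosiglitazone at 24 h raised 2 of the 10 (SCD and ELOVL6), against 5.81% of all genes higher and 6.52% lower. At 48 h GW3965 raised 7 of the 10, with ACLY and MLXIPL added, and 5 of them at least 2-fold. Of the 22470 genes tested then, 16.1% were called higher and 17.5% lower, and 3.24% were at least 2-fold higher. T0901317 raised 6 of the 10 at 48 h, 5 of them at least 2-fold, against 14.0% of all genes higher, 16.1% lower and 2.80% at least 2-fold higher. Rosiglitazone at 48 h raised 5 of the 10 (SREBF1, SCD, FASN, ELOVL6 and FADS1), none of them 2-fold, against 12.3% of all genes higher and 13.1% lower. The 3 drugs of a time point share its DMSO libraries.

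**Figure D2:**
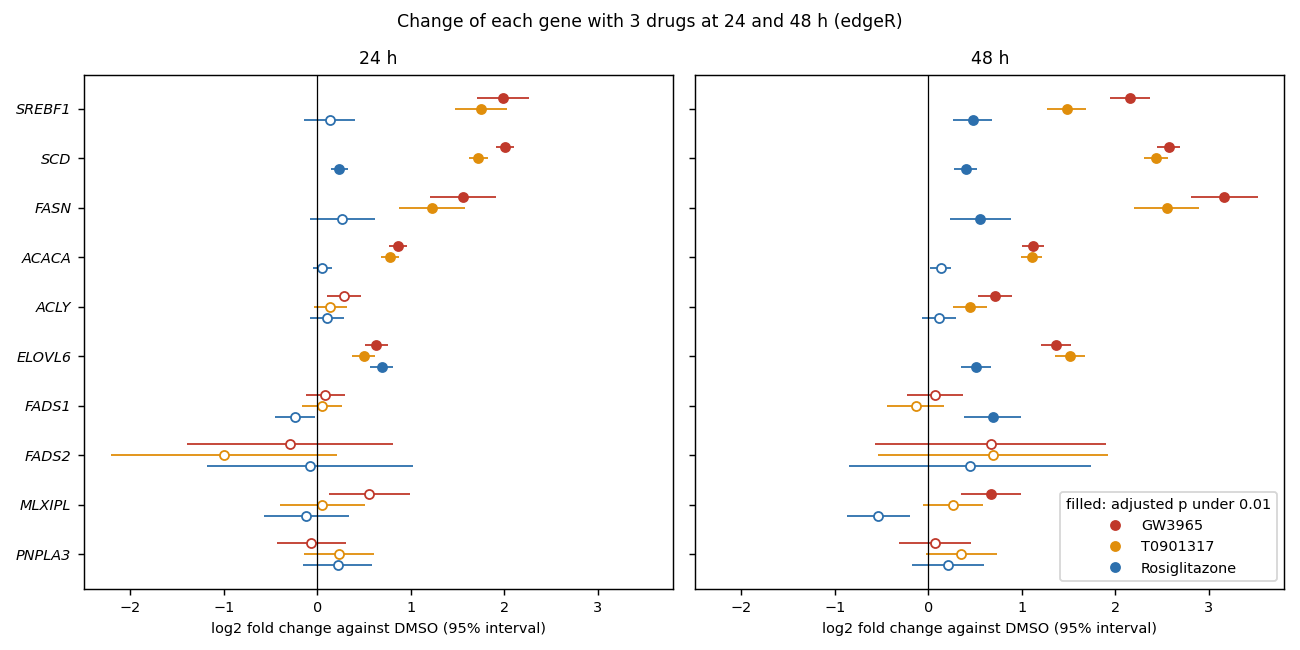
Log2 fold change against DMSO (horizontal axes) with its 95% interval from edgeR for each gene and drug at 24 h (left) and 48 h (right), filled points having an adjusted p under 0.01. GW3965 changed FASN by 1.56 at 24 h and 3.17 at 48 h, and the intervals of FADS2 all include 0.

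Summed, the members took up a larger share of all counts with the LXR agonists than with DMSO. The sum is weighted to members with many counts, and FASN alone stood at 3303 ± 327 CPM with DMSO at 24 h and 932 ± 92.9 CPM at 48 h. With DMSO the 10 genes held 0.574% ± 0.0289 of all counts at 24 h and 0.320% ± 0.0178 at 48 h (SD, n = 4). With GW3965 they held 1.63% ± 0.288 and 1.78% ± 0.0785, with T0901317 1.34% ± 0.0991 and 1.40% ± 0.183, and with rosiglitazone 0.630% ± 0.0564 and 0.377% ± 0.0437. The libraries of either LXR agonist lay above all DMSO libraries of their time point. In RNA of whole cultures a change in every cell and a change in some of the cells cannot be told apart.

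Set against each other directly, the LXR agonists differed on few members. T0901317 was lower than GW3965 on SCD at 24 h, by 0.29 on the log2 scale (standard error 0.05, adjusted p = 0.00127), and 0.193% of all genes were lower in that comparison. With only these 2 groups in the fit the SCD difference did not pass (adjusted p = 0.0452). At 48 h T0901317 was lower on SREBF1 by 0.68 (0.10, adjusted p = 0.000191), with 5.03% of all genes lower. FASN at 48 h differed by -0.62 (0.16, adjusted p = 0.0102), just short of the threshold, with all T0901317 libraries below all GW3965 libraries. It passed with DESeq2 (adjusted p = 0.00713), without the filter on low counts (0.00204), with a block for the replicate number (0.00147), with only the 2 groups fitted (0.00657) and without replicate 1 of T0901317 (0.000847). Without that replicate ACLY also passed (-0.35, adjusted p = 0.00588). ACACA and ELOVL6 at 48 h differed by -0.01 (95% interval -0.13 to 0.10) and 0.15 (-0.00 to 0.31).

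Rosiglitazone was lower than GW3965 at 24 h on 4 members (SREBF1, SCD, FASN and ACACA), against 6.09% of all genes, with differences of -1.86 (0.13), -1.77 (0.05), -1.29 (0.17) and -0.81 (0.05). MLXIPL and FADS1 were not called (-0.68 and -0.32, adjusted p = 0.0297 and 0.0328). MLXIPL passed without replicate 1 of GW3965 (-0.85, adjusted p = 0.00155) and FADS1 without replicate 4 of rosiglitazone (-0.42, adjusted p = 0.00510). At 48 h rosiglitazone was lower on 7 members, from -0.60 (0.09) for ACLY to -2.61 (0.17) for FASN, against 22.6% of all genes. FADS1 alone among the members was higher with rosiglitazone (0.62, standard error 0.14, adjusted p = 0.00103), against 22.4% of all genes.

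The response to the LXR agonists was larger at 48 h than at 24 h for part of the members, tested as the difference of the differences in a fit of all 32 libraries. For GW3965 it was larger for 5 of the 10, against 9.96% of the 23140 genes tested. FASN differed most, by 1.61 (0.25, adjusted p = 5.36e-06), then ELOVL6 by 0.73 (0.10), SCD by 0.56 (0.07), ACLY by 0.43 (0.12, adjusted p = 0.00818) and ACACA by 0.25 (0.07, adjusted p = 0.00353). SREBF1 itself was not called (0.17, 95% interval -0.18 to 0.52). For T0901317 it was larger for FASN (1.32, 0.25), ELOVL6 (1.02, 0.10), SCD (0.71, 0.07) and ACACA (0.33, 0.07), 4 of the 10 against 7.49% of all genes, and SREBF1 stood at -0.28 (-0.63 to 0.08). For rosiglitazone FADS1 alone passed (0.93, 0.19, adjusted p = 0.00183), against 1.38% of all genes.

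The ACACA and ACLY calls with GW3965 lay near the threshold and were lost under several alternatives, while their values moved little. ACACA with GW3965 did not pass without replicate 2 of DMSO at 24 h (0.24, adjusted p = 0.0112), replicate 3 of DMSO at 48 h (0.23, 0.0142) or replicate 2 of GW3965 at 48 h (0.22, 0.0182), nor without the filter on low counts (0.25, 0.0196). ACLY with GW3965 did not pass without replicates 1, 2 or 4 of DMSO at 24 h or of GW3965 at 24 h, replicates 1, 3 or 4 of DMSO at 48 h, or replicates 2 or 4 of GW3965 at 48 h, each left out alone. Its values then lay between 0.36 and 0.45, with adjusted p from 0.0102 to 0.0297.

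The larger responses of FASN, ELOVL6, ACLY and ACACA at 48 h stood beside lower levels with DMSO, whereas that of SCD did not. Between DMSO at 24 and 48 h FASN fell by 1.83 (0.18, adjusted p = 3.16e-10), ELOVL6 by 1.06 (0.07), ACLY by 0.69 (0.09) and ACACA by 0.29 (0.05, adjusted p = 4.14e-06), 4 of the 10 against 18.9% of all genes lower. MLXIPL was higher by 0.83 (0.20, adjusted p = 0.000659), with 19.7% of all genes higher. SCD differed by 0.05 (95% interval -0.05 to 0.15) and SREBF1 by 0.28 (adjusted p = 0.0547), although all SREBF1 libraries at 48 h lay above those at 24 h. Each time point has its own table and its own DMSO libraries, so time and any difference in how the 2 sets were prepared cannot be told apart.

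The 8 group means were also put in order of level across both time points. For SCD the 4 LXR agonist groups ranked above all others, from 2891 ± 24.4 CPM (T0901317, 24 h) to 5404 ± 212 CPM (GW3965, 48 h), and of its neighbours only the DMSO groups, and the agonist groups at 48 h, overlapped. For SREBF1 the same 4 groups ranked highest, from 1595 ± 216 CPM (T0901317, 24 h) to 2577 ± 124 CPM (GW3965, 48 h), and the lower 3 of them overlapped with their neighbours. For FASN the order ran from DMSO at 48 h (932 ± 92.9 CPM) and rosiglitazone at 48 h (1389 ± 282 CPM) to GW3965 at 24 h (9747 ± 2880 CPM), with every neighbour from DMSO at 24 h upward overlapping. For ELOVL6 rosiglitazone at 24 h ranked highest (63.2 ± 2.30 CPM) and DMSO at 48 h lowest (18.7 ± 0.74 CPM), and the 5 highest groups overlapped with their neighbours.

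**Figure D3:**
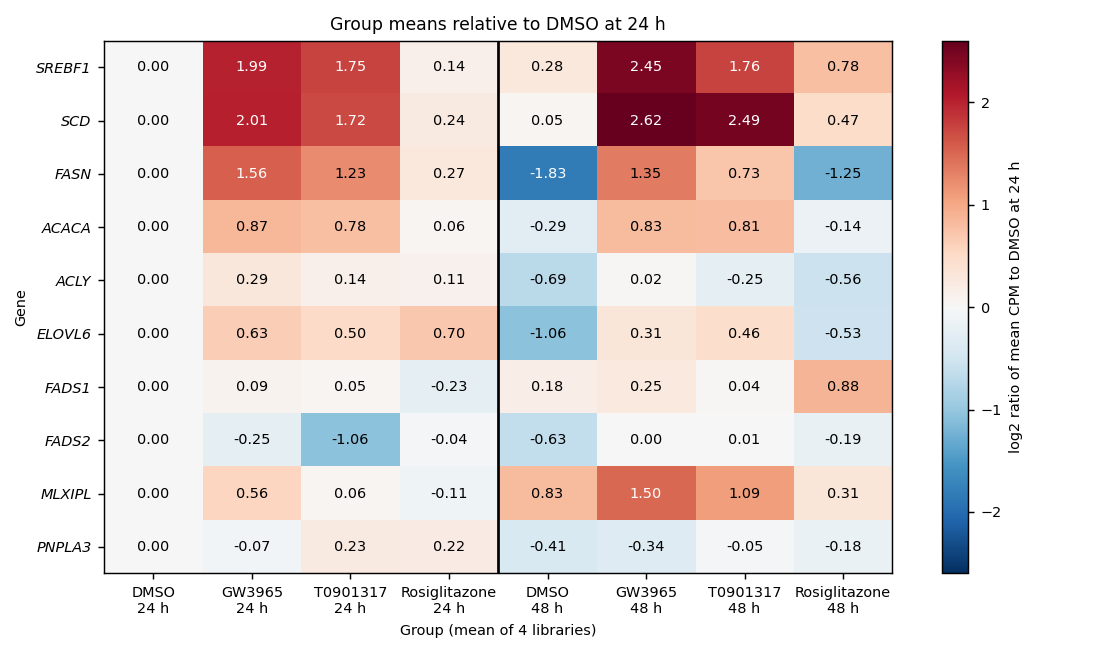
Log2 ratio of each group's mean CPM (columns, 4 libraries each) to that of DMSO at 24 h, for the 10 genes (rows); red is higher and blue lower, with the value printed. DMSO at 48 h stood at -1.83 for FASN and -1.06 for ELOVL6, against 0.28 for SREBF1 and 0.05 for SCD.

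Over the 8 group means of log2 CPM, SCD followed SREBF1 most closely among the members, with Pearson's r of 0.97, and ACACA came next with 0.91. FASN had 0.73, MLXIPL 0.63, ELOVL6 0.46, ACLY 0.38, FADS2 0.22, FADS1 0.12 and PNPLA3 -0.09. Ranks gave another order for the lower ones, with Spearman's rho of 0.50 for FADS1, 0.43 for FADS2, 0.33 for ACLY, 0.21 for ELOVL6 and -0.31 for PNPLA3. These 8 points share libraries across genes and are a description only. Of the 14507 genes whose average log2 CPM reached 1, the 5 most like SREBF1 were MIR33B (0.997), SREBF2 (0.979), SCDP1 (0.979), ACSL3 (0.978) and SCD. SREBF2, which encodes the sterol-regulated SREBP-2, moved little in size, by 0.30 (0.06, adjusted p = 0.000592) with GW3965 at 48 h. MIR33B (ENSG00000207839.1) lies in an intron of SREBF1 and SCDP1 is a processed copy of SCD, so reads of either may come from the larger gene. Their counts were 1.83% to 2.44% of those of SREBF1 and 0.240% to 0.403% of those of SCD. The mature miRNA of the hosted gene is shown because its host gene is the member that leads the pathway, with its seed (bases 2 to 8) in capitals, from RefSeq (GRCh38.p14, chr17:17813897-17813916, minus strand).
hsa-miR-33b-5p: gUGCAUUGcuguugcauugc
The libraries were made from mRNA, so the MIR33B counts say nothing of the mature miRNA. Counts of MIR33B gave 10.6 ± 1.26 CPM with DMSO and 42.8 ± 10.7 CPM with GW3965 at 24 h, and 11.7 ± 1.42 and 57.5 ± 2.55 CPM at 48 h.

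Within groups the members did not spread alike. The median coefficient of variation over the 8 groups was 3.22% for SCD, 3.69% for ACACA and 5.93% for ELOVL6, against 10.9% for SREBF1 and 13.8% for FASN. The library with the lowest SREBF1 of its group was also the lowest in FASN in 6 of the 8 groups, in ACLY in 6 and in SCD in 5. For MLXIPL and FADS2 this held in 4, for ACACA in 3, for ELOVL6 and FADS1 in 2 and for PNPLA3 in 0. Of 14507 genes, 7.3% shared the lowest library with SREBF1 in at least 6 groups, and the median gene did so in 2. Replicate 1 of GW3965 at 24 h had 1294 CPM of SREBF1 and 5785 CPM of FASN, each the lowest of its group, and at the same time 67.0 CPM of ELOVL6, the highest. Its TMM factor was 1.04 against 0.961 to 0.994 in the other 3 libraries, and the part of this in the result was not tested.

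**Figure D4:**
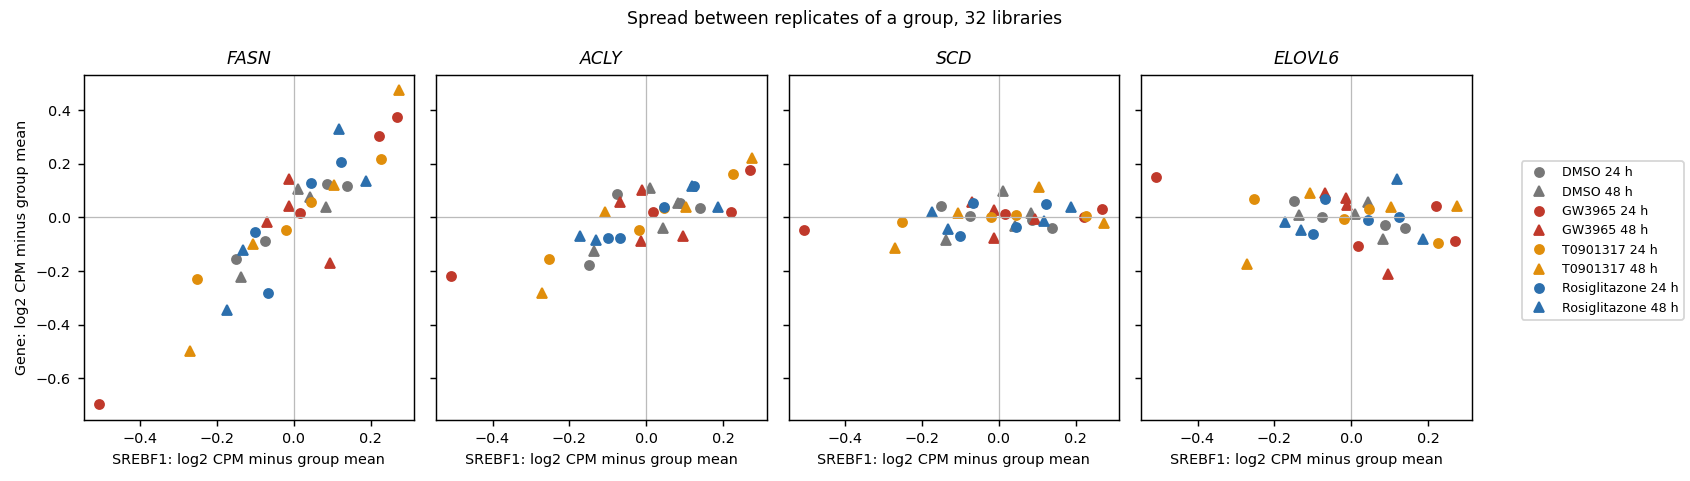
Deviation of each of the 32 libraries from its group's mean log2 CPM, for SREBF1 (horizontal axes) against FASN, ACLY, SCD and ELOVL6 (vertical axes), coloured by drug with circles for 24 h and triangles for 48 h. The lowest point in the FASN panel is replicate 1 of GW3965 at 24 h, at -0.51 for SREBF1 and -0.70 for FASN, while SCD in that library was at -0.05.

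Among other genes of fatty acid synthesis, activation, elongation and desaturation, at most 13 of 27 tested passed in any comparison with DMSO. Of the 27, 8 were higher and 0 lower with GW3965 at 24 h and 5 and 0 with T0901317, and the list medians were 0.17 and 0.14 on the log2 scale, against -0.01 and -0.00 for all genes. At 48 h GW3965 raised 12 and lowered 1, and T0901317 raised 13 and lowered 0, with medians of 0.31 and 0.27 against 0.00 and 0.01. Of all genes, 1.86% were higher and 0.868% lower with GW3965 at 24 h and 16.1% and 17.5% at 48 h, and with T0901317 1.33% and 0.119%, then 14.0% and 16.1%. ACSS2, which makes acetyl-CoA from acetate, was higher by 1.16 (0.10) with GW3965 at 24 h and 2.36 (0.09) at 48 h. ACSL1, which activates long-chain fatty acids, was higher by 1.60 (0.05) and 2.08 (0.07), and ACSL3, of the same function, by 1.10 (0.06) at 24 h. Rosiglitazone raised 4 and lowered 2 at 24 h and raised 9 and lowered 1 at 48 h, with medians of 0.09 and 0.10 against -0.02 and -0.01, where 5.81% of all genes were higher and 6.52% lower at 24 h and 12.3% and 13.1% at 48 h. The largest were ACSL5 (1.15 at 24 h and 1.27 at 48 h) and the elongase of very long chains ELOVL1 (0.83 and 1.43).

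Genes of glycerolipid and phospholipid synthesis use the fatty acids made. Of 23 tested, 4 were higher and 0 lower with GW3965 at 24 h (list median 0.06) and 16 higher and 2 lower at 48 h (0.35). T0901317 gave 2 and 0 (0.06), then 14 and 2 (0.38), and rosiglitazone 4 and 6 (0.04), then 4 and 5 (-0.01). The median of all genes lay between -0.02 and 0.01 throughout. Of all genes, GW3965 raised 1.86% and lowered 0.868% at 24 h and 16.1% and 17.5% at 48 h, T0901317 1.33% and 0.119%, then 14.0% and 16.1%, and rosiglitazone 5.81% and 6.52%, then 12.3% and 13.1%. LPCAT3, which puts polyunsaturated chains into phospholipids and is an LXR target, was higher by 1.56 (0.05) and 2.18 (0.06) with GW3965 and by 1.19 (0.05) and 1.28 (0.06) with rosiglitazone. LPIN1, a phosphatidate phosphatase, was higher by 1.06 (0.06) with GW3965 and 0.85 (0.06) with T0901317 at 24 h. MOGAT2, the intestinal monoacylglycerol acyltransferase, was higher by 4.46 (0.60) with GW3965 and 3.96 (0.63) with T0901317 at 48 h. AGPAT9, a glycerol-phosphate acyltransferase, was lower by -1.61 (0.21) with GW3965 and higher by 1.75 (0.20) with rosiglitazone at 48 h.

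Another list held SREBF2 and the machinery that retains, cuts or degrades SREBP. Of its 14 genes tested, 1 was called at 24 h with each LXR agonist, in both cases INSIG1, the retention protein of the SREBP complex and itself an SREBP target. It was higher by 0.57 (0.05) with GW3965 and 0.36 (0.05) with T0901317 at 24 h, and by 1.71 (0.11) and 1.67 (0.11) at 48 h. At 48 h 3 were higher, SREBF2 among them, and 4 lower with GW3965, and 2 and 2 with T0901317. TRIB1, a pseudokinase that promotes protein degradation, was lower with both (-1.17, 0.08, and -1.09, 0.08). Rosiglitazone lowered 2 at 24 h, INSIG2 (-0.35, 0.09) and INSIG1 (-0.26, 0.05), and raised 3 and lowered 3 at 48 h. The counts at 48 h stood beside 16.1% of all genes higher and 17.5% lower with GW3965, 14.0% and 16.1% with T0901317, and 12.3% and 13.1% with rosiglitazone, and those at 24 h beside 1.86% and 0.868%, 1.33% and 0.119%, and 5.81% and 6.52%. List medians were 0.05, 0.03 and -0.00 at 24 h and 0.12, 0.17 and -0.07 at 48 h for GW3965, T0901317 and rosiglitazone.

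Genes around ChREBP were called in both directions at 48 h. Of 10 tested (MLX partners, ChREBP targets and genes of NADPH supply), GW3965 raised 2 at 24 h and raised 6 and lowered 2 at 48 h, with list medians of 0.21 and 0.60. T0901317 raised 2 and lowered 1, then raised 6 and lowered 3, with medians of 0.07 and 0.53. The genes lowered most were ARRDC4 (-3.05, 0.12, with GW3965 and -3.81, 0.12, with T0901317) and TXNIP (-2.48, 0.10, and -2.84, 0.11), arrestin-family genes that ChREBP and its relative MLXIP are known to induce with glucose. GCKR, the glucokinase regulator, was higher by 2.54 (0.19) and 2.04 (0.19). Rosiglitazone raised 1 at 24 h and raised 3 and lowered 1 at 48 h, with medians of 0.06 and 0.03. The shares of all genes called are those given for the SREBP list. With rosiglitazone at 48 h GCKR was higher by 1.61 (0.20) and PKLR, the pyruvate kinase of liver and gut, was lower by -1.09 (0.26).

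NR1H3, which encodes LXRA, rose from 72.3 ± 3.40 to 155 ± 12.8 CPM with GW3965 at 24 h, and from 75.2 ± 6.65 to 236 ± 13.2 CPM at 48 h, by 1.10 (0.08) and 1.65 (0.06). It was also higher with T0901317 (0.74 and 1.21) and rosiglitazone (0.81 and 1.09). NR1H2, which encodes LXRB, was called at 48 h only, lower with GW3965 (-0.25, 0.06) and T0901317 (-0.49, 0.06) and higher with rosiglitazone (0.26, 0.06). PPARG was lower at 48 h with every drug, from -0.47 (0.08) with rosiglitazone to -1.08 (0.08) with GW3965. Already at 24 h it stood at 30.7 to 35.4 CPM with rosiglitazone, below the 42.0 to 47.6 CPM of DMSO. RXRA, the shared partner receptor, was called with GW3965 at 48 h alone (0.43, 0.08). ABCG1 and MYLIP were higher with both LXR agonists (3.04 to 4.67 and 1.39 to 1.74), and ANGPTL4 was higher with rosiglitazone by 5.02 (0.27) and 6.75 (0.31). With GW3965 at 48 h ANGPTL4 stood at 3.14 to 3.82 CPM, above DMSO (0.148 to 0.323 CPM), whereas T0901317 (0.262 to 0.990 CPM) overlapped with DMSO. With rosiglitazone at 48 h ABCG1 stood at 41.1 to 75.7 CPM and MYLIP at 10.5 to 14.1 CPM. Both lay above DMSO (21.1 to 24.1 and 6.83 to 9.08 CPM). ABCA1 with rosiglitazone at 24 h (2.23 to 2.84 CPM) lay below DMSO (4.35 to 4.93 CPM), and at 48 h the ranges overlapped.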

How the data were processed

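RNA-seq was measured in 32 libraries of HT29 cells. Per the study's methods, mRNA was isolated and its cDNA was cut with Nextera transposases. The authors deposited raw read counts per gene, 1 table for each time point, and the submitters' processing notes name TopHat, Cufflinks and hg19. Of the counting program, its strand setting and the annotation release nothing is given in the sources used. Over all genes and libraries, counts of 1 and 2 were about equally frequent (50072 and 50039 values), as were 3 and 4 (26530 and 26191) and 5 and 6 (17936 and 17980). The cause was not tested. Whether each count stands for 1 separate fragment is not stated, so low counts may overstate the depth. Samples were grouped by their labels. Counts were scaled by TMM and tested with edgeR 4.0.16 (R 4.3.3) by its quasi-likelihood test, in 1 fit for each time point after filterByExpr. Differences between time points came from 1 fit of all 32 libraries. P-values were adjusted by Benjamini-Hochberg over all genes tested. The members, the lists, the control genes and the rule for named genes were chosen with earlier results of these data known. List genes are named where they are among the 3 largest called changes. The fits were tested on simulated data with the same spread for every gene and changes of at least 2-fold. Genes of low level and wide spread such as FADS2, and smaller changes, were thus not covered.

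Alternatives were DESeq2 1.42.0, RLE size factors, library totals alone, no filter, only the 2 groups compared, a block for the replicate number, leaving out each library and, for likeness to SREBF1, Spearman's rho. Each drug library was compared with the DMSO library of the same number and time, 24 pairs in all. The 2 deviated together, with a correlation over 0.1, in 6 of these pairs (range over all -0.580 to 0.501), so the numbers were not taken as pairing the libraries. Total counts of 21044798 to 51332656 limit the genes of low counts, among the members FADS2, PNPLA3 and MLXIPL. The LXR peak files were not analysed here. Promoter and miRNA sequences are from RefSeq, build GRCh38.p14. Figures were drawn with matplotlib 3.10.9.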

Additional observations from a re-analysis of the deposited data

Results flagged for a closer look

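In 3 of 80 groups of 4 libraries, 1 library of a member stood apart by Dixon's test at the 95% level, which chance does in about 1 in 20 groups. These were ACACA with T0901317 at 48 h (replicate 3, 574 CPM), ELOVL6 with GW3965 at 48 h (replicate 3, 41.5 CPM) and FADS2 with DMSO at 24 h (replicate 1, 2.06 CPM).

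The response of 10 member and drug pairs differed between 24 and 48 h by the test of the difference itself. With GW3965 the 48 h response exceeded that at 24 h on the log2 scale by 0.561 for SCD, 1.61 for FASN, 0.254 for ACACA, 0.426 for ACLY and 0.734 for ELOVL6. With T0901317 it did so by 0.713 for SCD, 1.32 for FASN, 0.328 for ACACA and 1.02 for ELOVL6, and with rosiglitazone by 0.934 for FADS1.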

How the results depend on the processing

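Of 216 alternatives for counts of called members 206 stayed within 1.5 times the count reported, and of 2160 for single members 2062 kept their direction and side of the threshold, 27 lost a call, 15 gained one and 56 changed sign, all of differences that were not called. Where no cause is given, the cause was not tested. Low counts limit FADS2, PNPLA3 and MLXIPL. Alternatives on LXR peaks were not run. The replicate block changed these calls: it left 2 members lower with T0901317 than with GW3965 at 48 h against 1 (FASN gained), lost ACLY in the GW3965 response between times (adjusted p = 0.0112) and gained MLXIPL with rosiglitazone at 48 h (0.00950), and no other call of a member. It turned FADS2 at 24 h to 0.04371 with GW3965 and 0.1451 with rosiglitazone. That comparison of the LXR agonists at 48 h also gave 2 with DESeq2, 2 with no filter on low counts and 2 with only the 2 groups compared, and 1 to 3 with a library left out (3 without replicate 1 of T0901317). At 24 h it gave 0 with only the 2 groups compared (SCD lost). The GW3965 response between times gave 3 to 5, with 3 without replicate 2 of DMSO at 24 h, replicate 3 of DMSO at 48 h or replicate 2 of GW3965 at 48 h.

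Library size alone as the scale left 1 member higher with rosiglitazone at 24 h, and it moved the median of all genes by -0.18 (rosiglitazone at 48 h), -0.137 (rosiglitazone minus GW3965 at 48 h) and -0.1 (rosiglitazone response between times). Higher and lower calls over all genes became 334 and 269 (from 406 and 189) for GW3965 at 24 h, 743 and 2209 (from 1266 and 1421) for rosiglitazone at 24 h, 1374 and 5459 (from 2771 and 2949) at 48 h, 1566 and 733 (from 747 and 1131) for T0901317 minus GW3965 at 48 h, 3674 and 6546 (from 5034 and 5076) for rosiglitazone minus GW3965 at 48 h, and, between times, 2251 and 1793 (from 1733 and 2303) for T0901317 and 183 and 442 (from 320 and 246) for rosiglitazone. It turned ACACA to -0.03914 and -0.04807 with rosiglitazone at 24 and 48 h, to 0.06732 between the LXR agonists at 48 h and to -0.008952 for the rosiglitazone response between times, and ACLY to -0.06317 at 48 h and -0.07574 between times. PNPLA3 in the latter became -0.006333 with DESeq2, -0.006983 with RLE size factors and -0.09185 with library size alone.

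With each library left out, values that changed sign ranged as follows. Those with GW3965 at 24 h ran from -0.5469 to 0.8245 for FADS2 and -0.1783 to 0.03156 for PNPLA3, and at 48 h from -0.001257 to 0.1358 for FADS1 and -0.01368 to 0.2598 for PNPLA3. Those with T0901317 at 24 h ran from -0.01225 to 0.1351 for FADS1, -1.767 to 0.1095 for FADS2 and -0.07401 to 0.1547 for MLXIPL, and with rosiglitazone at 24 h from -0.337 to 1.042 for FADS2 and -0.2215 to 0.05755 for MLXIPL. T0901317 minus GW3965 ran from -0.05003 to 0.000876 for FADS1 at 24 h, and at 48 h from -0.0374 to 0.02175 for ACACA and -0.2188 to 0.2311 for FADS2. Rosiglitazone minus GW3965 at 24 h ran from -0.04733 to 0.3933 for FADS2. The GW3965 response between times ran from -0.09062 to 0.05558 for FADS1, -0.1537 to 2.18 for FADS2 and -0.06334 to 0.2624 for MLXIPL. The rosiglitazone response ran from -0.04044 to 0.09184 for ACLY, -0.568 to 1.767 for FADS2 and -0.1185 to 0.2052 for PNPLA3, and DMSO at 48 h minus 24 h from -1.918 to 0.4161 for FADS2.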
